A study of Homo sapiens with 6 samples.

Results

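Matrix proteases and the plasminogen activation genes that work beside them were examined in HaCaT cells, an immortalized human keratinocyte line, by RNA sequencing of poly(A) RNA. The set held 9 genes, taken by name because of their roles at the cell surface and in the extracellular matrix: MMP1, MMP2, MMP9, MMP14, TIMP1, TIMP2, TIMP3, PLAU and PLAUR. The deposited table held 12499 genes, and 8 of the 9 had a row in it. MMP9 had none and was not analysed here. Every gene in the table had at least 51 counts summed over the 6 libraries, so a missing row is not a measurement of absence.

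The study asked what a lentivirus carrying ATF7, a transcription factor of the ATF/CREB family, does to keratinocytes kept in high glucose. All 6 libraries came from HaCaT cells infected for 48 hours and then held in high glucose for 24 hours, so both groups share the infection and the glucose. The 3 libraries labelled LV-NC received control lentivirus, and the 3 labelled LV-ATF7 received lentivirus with the ATF7 coding sequence in a vector with a puromycin marker. The promoter driving it is not given in the sources used here. No source states that the 3 libraries of a group came from separate cultures, so the p-values measure only the spread between these libraries, which may be technical.

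Library totals lay between 16686472 and 20562768 counts. ATF7, the gene the vector carries, had 945, 886 and 902 counts in the libraries labelled LV-NC and 392, 505 and 506 in those labelled LV-ATF7, a log2 fold change of -0.98 ± 0.12 (SE; edgeR adjusted p = 1.89e-04). This goes against the labels, and every direction given here is therefore between libraries as labelled. The names of the count columns match the library names in the labels, and whether libraries or labels were exchanged was not tested. LV-NC replicate 1 stood apart from the other two of its group, with correlations of log2 CPM (counts scaled to library size) of 0.9672 and 0.9685 against 0.9945 between replicates 2 and 3. Of 12462 genes tested, 67.6% differed between the groups at an adjusted p under 0.05, with 34.7% higher and 32.9% lower in the libraries labelled LV-ATF7, so a call on its own is common in this comparison.

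Matrix metalloproteinases are zinc-dependent enzymes made as inactive precursors. MMP1 cleaves fibrillar collagen, MMP2 and MMP9 are gelatinases, and MMP14 is anchored in the membrane, where it cleaves collagen and activates MMP2. TIMP1, TIMP2 and TIMP3 are their secreted inhibitors: TIMP2 also helps MMP14 to activate MMP2, and TIMP3 is held in the matrix and inhibits ADAM proteases as well. PLAU encodes urokinase, which turns plasminogen into plasmin, and PLAUR encodes the receptor that holds urokinase at the cell surface. In wounded epidermis, keratinocytes at the moving edge are known to use MMP1 on collagen and urokinase with its receptor on fibrin.

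Promoter letters are shown for 4 of the genes, because the results divide them into genes that rose (MMP14, TIMP3) and genes that fell (TIMP1, PLAUR). They come from RefSeq (GRCh38.p14), 5′ to 3′ on the strand of the gene, within the 250 bases before the annotated start, and only stretches outside annotated exons are given, apart from a short site for PLAUR. Capitals mark 3 motifs searched on both strands: AP-1 (TGAGTCA or TGACTCA), CRE, the ATF/CREB element (TGACGTCA), and the GC box (GGGCGG or CCGCCC). For PLAUR, 27 bases around its AP-1 match are shown.
MMP14 (chr14:22836335-22836556, plus strand): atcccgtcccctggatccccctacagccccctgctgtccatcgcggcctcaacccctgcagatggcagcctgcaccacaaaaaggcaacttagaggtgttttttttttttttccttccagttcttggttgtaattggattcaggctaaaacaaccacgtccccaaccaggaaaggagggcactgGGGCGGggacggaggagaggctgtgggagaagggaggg
TIMP3 (chr22:32801455-32801700, plus strand): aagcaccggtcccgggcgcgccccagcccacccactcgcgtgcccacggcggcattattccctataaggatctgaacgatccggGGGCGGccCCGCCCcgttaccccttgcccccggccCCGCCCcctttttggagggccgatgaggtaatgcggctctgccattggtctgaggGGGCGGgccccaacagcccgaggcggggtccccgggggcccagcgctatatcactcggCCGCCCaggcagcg
TIMP1 (chrX:47582186-47582312, plus strand): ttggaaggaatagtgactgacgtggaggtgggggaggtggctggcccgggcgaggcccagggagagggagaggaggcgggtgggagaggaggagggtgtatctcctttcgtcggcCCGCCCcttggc
PLAUR (chr19:43670339-43670365, minus strand): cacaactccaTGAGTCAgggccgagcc

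The TIMP3 stretch held 5 GC boxes in 246 bases and was 72.0% G or C. The MMP14 stretch (222 bases) and the shorter TIMP1 stretch (127 bases) held 1 GC box each. Over all 250 bases before its start, exons included, TIMP1 had 2 GC boxes. The PLAUR window held 1 AP-1 match, which began 186 bases before the start. All 250 bases of that window lay within annotated exons, so the match is not in a stretch outside exons. Over all 35116 promoters of the table, 42.6% held a GC box, 4.2% an AP-1 match and 1.65% a CRE within 250 bases before the start. Of stretches as long as those shown, 39.2% (MMP14), 42.2% (TIMP3) and 21.8% (TIMP1) held a GC box. No CRE was found in the 250 bases before the start of the 4 genes. A match describes the letters and not a bound factor. MMP1, MMP2 and TIMP2 are named only. PLAU was searched but is not shown, as the 250 bases before its annotated starts lay within exons. Its windows held no AP-1 or CRE match, and 1 window held 3 GC boxes.

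All 8 genes differed between the groups at an adjusted p under 0.05, where 67.6% of all genes did. Transcripts of 5 genes rose in the libraries labelled LV-ATF7 (MMP1, MMP2, MMP14, TIMP3 and PLAU), where 34.7% of all genes rose, and transcripts of 3 fell (TIMP1, TIMP2 and PLAUR), where 32.9% of all genes fell. The 2 groups of libraries did not overlap for any of the 8, against 72.7% of all genes without overlap. A fold change of at least 1.5 accompanied the call for 7 of the 8, all but MMP2, against 52.9% of all genes. The median absolute log2 fold change was 2.19 for the 8 genes and 0.667 for all genes tested. MMP1, TIMP3, PLAU and PLAUR changed by more than 3 on the log2 scale, as did 4.67% of all genes (582). The genes were chosen with earlier results of these data known, so these comparisons describe the 8 genes and test nothing. MMP1 passed the filter on low counts only through the libraries labelled LV-ATF7.

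**Figure D1:**
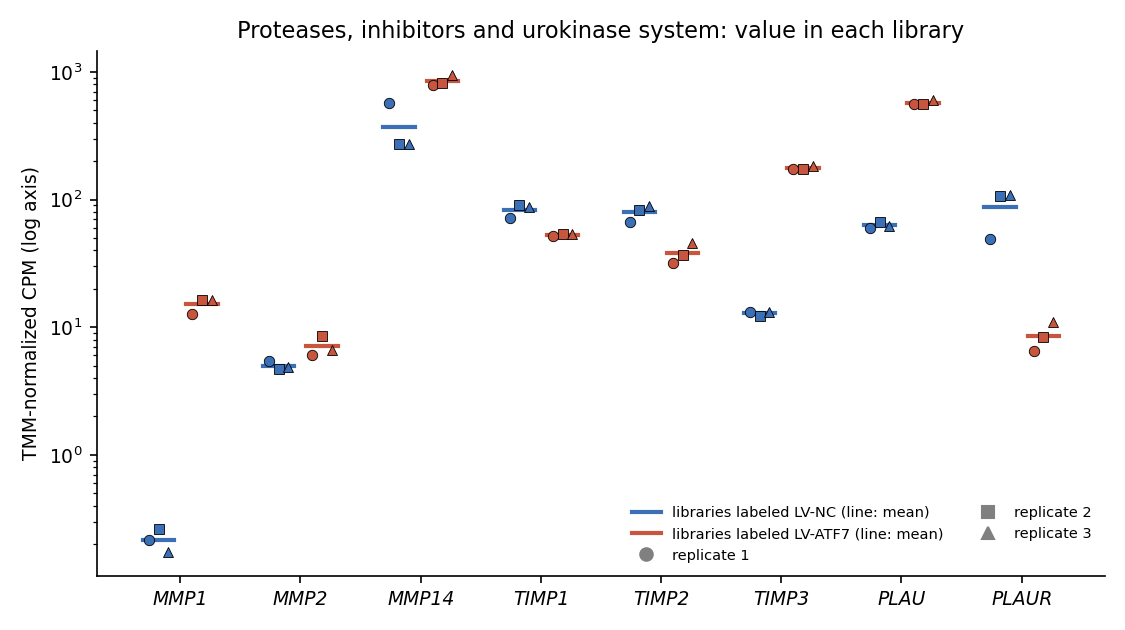
CPM after TMM scaling (log axis) of the 8 genes in each library, with circles, squares and triangles for replicates 1, 2 and 3 and a line at the mean of the 3 libraries. The groups do not overlap for any gene, MMP1 shows the widest gap, and for MMP14 and PLAUR the LV-NC circle lies apart from the other two LV-NC points, on the side of the LV-ATF7 points.

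MMP1, the interstitial collagenase, was nearly absent from the libraries labelled LV-NC. Its counts there were 4, 5 and 3, and in the libraries labelled LV-ATF7 they were 228, 321 and 296. Every library labelled LV-ATF7 was far above every library labelled LV-NC. In CPM, counts scaled to a common library size by the trimmed mean of M values (TMM), the level went from 0.217 ± 0.044 to 15.2 ± 2.1 (SD, n = 3 each), a log2 fold change of 6.08 ± 0.25 (SE; edgeR quasi-likelihood test, adjusted p = 1.39e-06). This was the 41st largest rise among 6233 genes with a positive change. The fold of the summed counts, 12 against 845, was 69.7 with an exact 95% interval of 39.7 to 135, which covers counting error only. Without LV-NC replicate 1 the log2 fold change was 6.04. The gene lies on chromosome 11 (GRCh38, GENCODE release 29, 102789920 to 102798160, minus strand) inside WTAPP1 on the other strand, and 7.61% of its exon bases are shared with that gene. Whether the authors counted by strand is not given in the sources used here, and WTAPP1 was not analysed here.

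MMP2, a gelatinase, changed least of the 8. Its counts were 102, 89 and 84 in the libraries labelled LV-NC and 109, 167 and 119 in those labelled LV-ATF7. The groups did not overlap, but in CPM the highest LV-NC library (replicate 1, 5.46) lay close to the lowest LV-ATF7 library (replicate 1, 6.08). The log2 fold change was 0.50 ± 0.19 (SE; edgeR adjusted p = 0.0418). This call was lost in 8 of 13 alternatives, among them DESeq2 (adjusted p = 0.0687), scaling by library size only (log2 fold change 0.33, edgeR adjusted p = 0.158) and the fit with the replicate number as a block (edgeR adjusted p = 0.0850). The gene is on chromosome 16 (55389700 to 55506691, plus strand) and shares 3.53% of its exon bases with AC007336.3 on the same strand.

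MMP14, the membrane-type protease, was the most abundant metalloproteinase transcript of the set in both groups. It had 10747, 5171 and 4683 counts in the libraries labelled LV-NC, and 14049, 16045 and 17222 in those labelled LV-ATF7. LV-NC replicate 1 lay well above its group mates, and all 3 libraries labelled LV-ATF7 were higher still. In CPM the LV-NC values were 575, 271 and 271 and the LV-ATF7 values 784, 818 and 952. The log2 fold change was 1.19 ± 0.29 (SE; edgeR adjusted p = 0.00664), and 1.63 without LV-NC replicate 1. The gene is on chromosome 14 (22836557 to 22849027, plus strand), and its promoter stretch is among those shown above.

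The inhibitors did not move together: TIMP1 and TIMP2 fell while TIMP3 rose. TIMP3, the matrix-bound inhibitor, had 244, 234 and 227 counts in the libraries labelled LV-NC and 3092, 3406 and 3315 in those labelled LV-ATF7. Replicates lay close together in both groups and the gap between groups was wide. In CPM the level went from 12.8 ± 0.48 to 177 ± 5.9 (SD, n = 3 each), a log2 fold change of 3.78 ± 0.095 (SE; edgeR adjusted p = 5.64e-07) or 13.8-fold, with the same value, 3.78, without LV-NC replicate 1. TIMP3 ranked 215th among the 6233 rises. It is on chromosome 22 (32801701 to 32863043, plus strand) within SYN3 on the other strand, with which it shares no exon bases. SYN3 was not analysed here.

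TIMP1 fell. Its counts were 1328, 1723 and 1517 in the libraries labelled LV-NC against 923, 1047 and 976 in those labelled LV-ATF7. In CPM all 3 LV-ATF7 values lay between 51.5 and 54.0, below the lowest LV-NC value of 71.1, which was that of replicate 1. The log2 fold change was -0.65 ± 0.11 (SE; edgeR adjusted p = 0.00122). TIMP1 is on the X chromosome (47582313 to 47586789, plus strand) within SYN1 on the other strand, sharing no exon bases with it, and SYN1 itself rose from 1.26 to 3.94 CPM.

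TIMP2, the inhibitor that also bridges MMP14 and MMP2, fell further than TIMP1. It had 1245, 1584 and 1550 counts in the libraries labelled LV-NC and 566, 727 and 827 in those labelled LV-ATF7. The lowest LV-NC library, again replicate 1 at 66.7 CPM, was above the highest LV-ATF7 library at 45.7 CPM. The log2 fold change was -1.07 ± 0.17 (SE; edgeR adjusted p = 6.75e-04), a 2.09-fold fall. On chromosome 17 (78852977 to 78925387, minus strand) TIMP2 shares 6.52% of its exon bases with annotation on the other strand and 3.52% with annotation on its own strand (CEP295NL and AC022966.1 between them).

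Set against each other per kilobase of exon, the 3 inhibitors changed places. TIMP3 made up 4.67, 3.51 and 3.77% of the summed TIMP level in the libraries labelled LV-NC and 49.0, 47.8 and 48.0% in those labelled LV-ATF7. TIMP1 went from 76.1% (mean of 3) to 43.3%, and TIMP2 from 20.0% to 8.48%. The summed level of the 3 was 70.9 ± 8.7 CPM per kilobase (SD, n = 3) in the libraries labelled LV-NC and 79.5 ± 3.2 in those labelled LV-ATF7, a difference of the size of the spread between LV-NC libraries, of which replicate 1 was lowest at 60.8; the groups did not overlap (60.8 to 76.0 and 76.5 to 83.0). The exon length used is that of all annotated exons counted once, and lengths of the transcripts in these cells may differ. By read counts alone the TIMP3 share was 7.39% and 66.0%, that of TIMP1 47.3% and 19.8%, and that of TIMP2 45.3% and 14.2%, so TIMP1 and TIMP2 reads were close in number in the libraries labelled LV-NC. The summed TIMP counts were 2817, 3541 and 3294 in the libraries labelled LV-NC and 4581, 5180 and 5118 in those labelled LV-ATF7, without overlap, before scaling to library size.

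**Figure D2:**
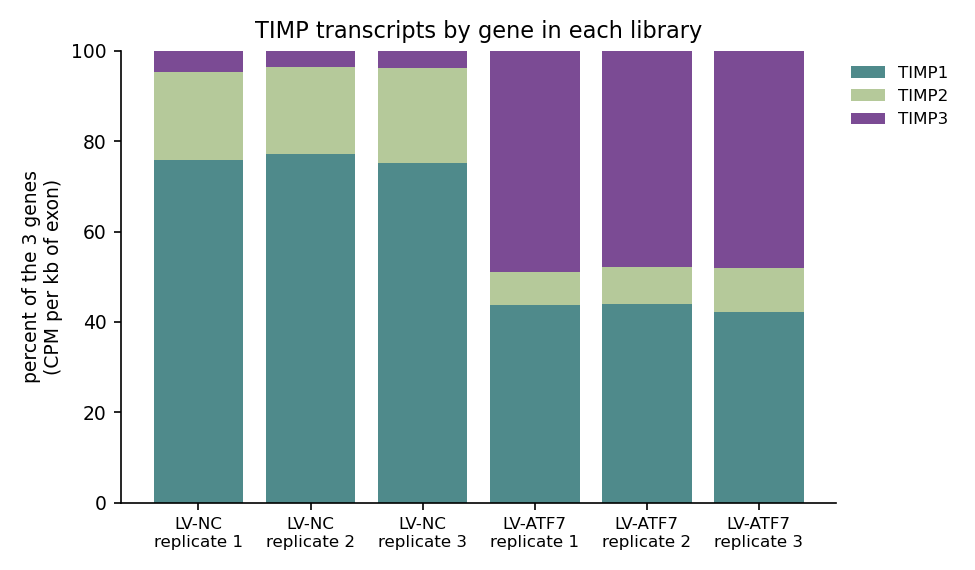
Share of TIMP1, TIMP2 and TIMP3 in their summed level (CPM per kilobase of exon) in each library, stacked to 100%. TIMP3 takes 3.51 to 4.67% in the libraries labelled LV-NC and 47.8 to 49.0% in those labelled LV-ATF7.

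The urokinase pair split. PLAU, the urokinase gene, rose from 1124, 1261 and 1071 counts in the libraries labelled LV-NC to 10067, 10904 and 10945 in those labelled LV-ATF7. PLAUR, the urokinase receptor gene, went the other way, from 912, 2027 and 1862 counts to 116, 163 and 198. For PLAU the libraries within a group lay close together, whereas for PLAUR LV-NC replicate 1 lay well below its group mates and was still above all libraries labelled LV-ATF7.

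The PLAU level was 62.8 ± 3.0 CPM and 574 ± 27 CPM (SD, n = 3 each), a log2 fold change of 3.19 ± 0.097 (SE; edgeR adjusted p = 7.90e-07) or 9.15-fold. PLAUR gave 48.8, 106 and 108 CPM against 6.48, 8.31 and 10.9 CPM, a log2 fold change of -3.35 ± 0.34 (SE; edgeR adjusted p = 7.04e-05), which is 10.2-fold lower. Without LV-NC replicate 1 the values were 3.14 and -3.66. PLAUR was the 129th largest fall among 6229 genes with a negative change, and PLAU the 355th largest rise. PLAU is on chromosome 10 (73909177 to 73917497, plus strand), and 31.05% of its exon bases are shared with C10orf55 on the other strand, which was not analysed here. Without knowledge of strand, reads in that share cannot be told apart. PLAUR is on chromosome 19 (43646095 to 43670547, minus strand) and shares no exon bases with another annotated gene.

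**Figure D3:**
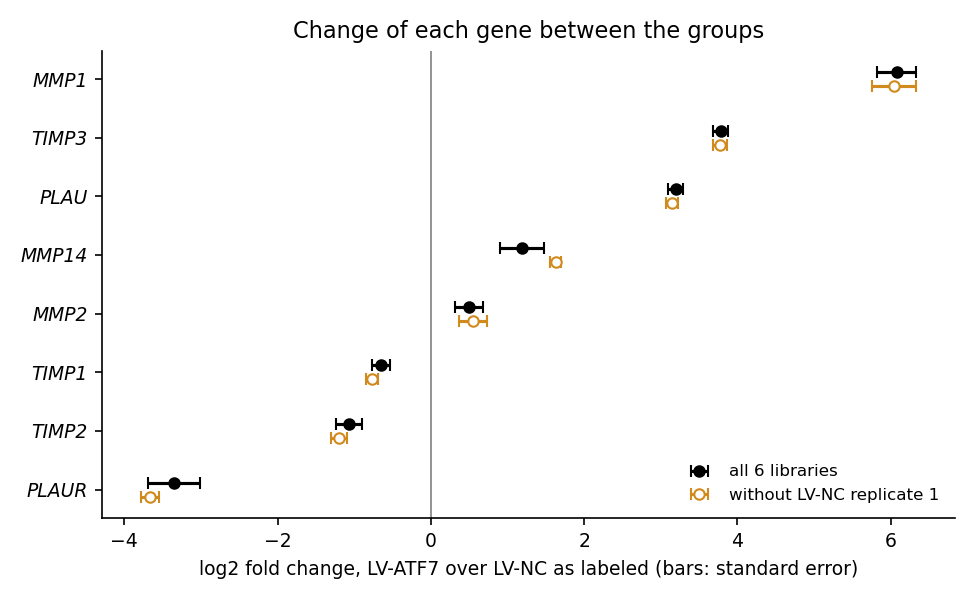
Log2 fold change of each gene, libraries labelled LV-ATF7 over LV-NC, with its standard error, in all 6 libraries (filled) and without LV-NC replicate 1 (open). MMP14 moves from 1.19 to 1.63 and PLAUR from -3.35 to -3.66, and no gene changes direction.

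LV-NC replicate 1 was the library of its group nearest to the libraries labelled LV-ATF7 for 5 of the 8 genes (MMP2, MMP14, TIMP1, TIMP2 and PLAUR), or 62.5%, and for 53.1% of all genes called. All 8 genes were called without it as well. In these libraries of whole cultures, fewer cells of one kind and less RNA per cell cannot be told apart.

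Compared per kilobase of exon, the order of the 8 genes differed between the groups. MMP14 led in the libraries labelled LV-NC at 83.4 ± 39.4 CPM per kilobase (SD, n = 3), followed by TIMP1 at 53.9. PLAU (21.3), PLAUR (19.7) and TIMP2 (14.2) came next, and each overlapped its neighbour in the order. TIMP3 (2.79), MMP2 (1.01) and MMP1 (0.110) closed it without overlap. In the libraries labelled LV-ATF7, PLAU at 194.7 ± 9.1 and MMP14 at 190.7 ± 19.9 overlapped at the top. TIMP3 (38.3) and TIMP1 (34.4) followed and were separate. MMP1 (7.69) overlapped TIMP2 (6.77), and PLAUR (1.92) overlapped MMP2 (1.43) at the bottom.

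Ratios within a library do not depend on its total. For MMP1 to TIMP1 the log2 ratio of counts (0.5 added to each) was -8.21, -8.29 and -8.76 in the libraries labelled LV-NC and -2.01, -1.70 and -1.72 in those labelled LV-ATF7, a difference of 6.61. The PLAU to PLAUR ratio was 0.30, -0.68 and -0.80 against 6.43, 6.06 and 5.79, a difference of 6.49. Urokinase reads were thus above receptor reads in LV-NC replicate 1 and below them in LV-NC replicates 2 and 3. They were far above receptor reads in all libraries labelled LV-ATF7.

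MMP14 to TIMP2 differed by 2.35, from a mean of 2.14 ± 0.84 to 4.49 ± 0.13 (SD, n = 3 each), and MMP2 to TIMP2 by 1.55, from -3.98 ± 0.33 to -2.43 ± 0.34. The groups did not overlap for any of the 4 ratios. Each gave p = 0.1 in a two-sided exact permutation test, and 0.1 after adjustment over the 4, which is the smallest p that 3 libraries against 3 allow. Another ratio, MMP9 to TIMP1, was not computed.

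**Figure D4:**
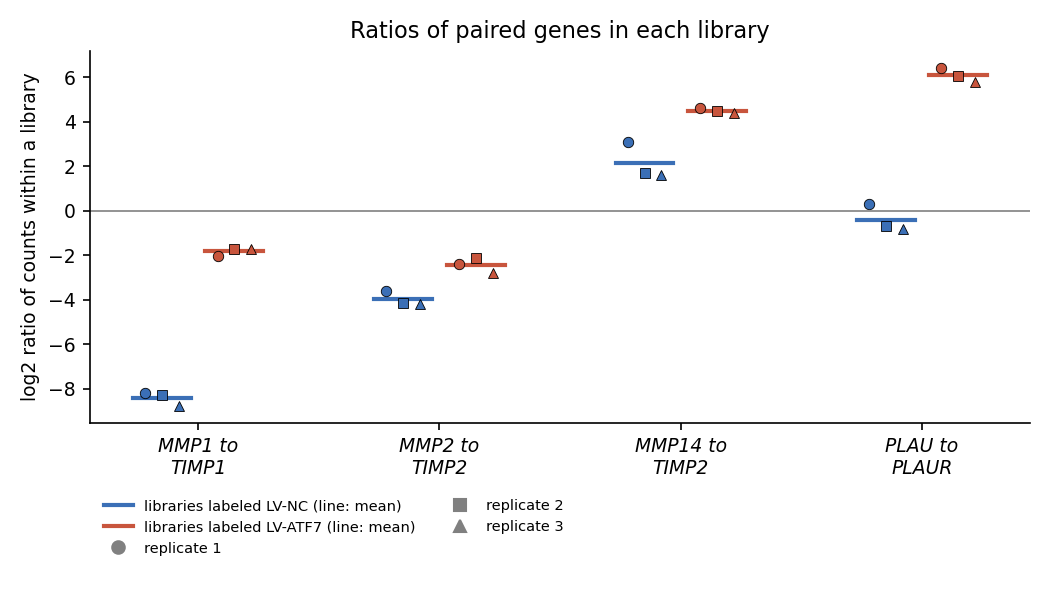
Log2 ratio of counts of 4 gene pairs within each library, with circles, squares and triangles for replicates 1, 2 and 3 and a line at the mean of the 3 libraries. All libraries labelled LV-ATF7 lie above all libraries labelled LV-NC, and PLAU to PLAUR goes from between -0.80 and 0.30 to between 5.79 and 6.43.

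The rest of the plasminogen system had 14 genes described here, of which 7 rose, 1 fell (IGF2R, -0.63 ± 0.10) and 6 were not called. With 57.1% called, the list lay below the 67.6% of all genes. PLAT, which encodes the tissue-type plasminogen activator, had 296, 336 and 270 counts in the libraries labelled LV-NC and 12535, 13779 and 13624 in those labelled LV-ATF7, with no overlap. Its log2 fold change was 5.46 ± 0.11 (SE; edgeR adjusted p = 4.97e-07) or 43.9-fold, so both plasminogen activator genes rose.

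SERPINB2, which encodes PAI-2, an inhibitor of urokinase, rose from 20, 41 and 56 counts to 120, 121 and 110 (log2 fold change 1.56 ± 0.34, edgeR adjusted p = 0.00389). Of its exon bases, 19.91% are shared with SERPINB10 on the same strand. SERPINF2, the gene of the plasmin inhibitor alpha-2-antiplasmin, rose by 3.34 ± 0.28 on the log2 scale. SERPINB2 and SERPINF2 thus rose with the activators, whereas the inhibitor gene SERPINE2 of the same list was not called (-0.40, edgeR adjusted p = 0.260). Clearance and uptake receptors differed among themselves. LRP1, which takes up complexes of urokinase and inhibitor, rose from 47.9 to 288 CPM (log2 fold change 2.59 ± 0.22), and LRP2 from 17, 13 and 6 counts to 370, 381 and 312. VLDLR (-0.34, edgeR adjusted p = 0.316) and MRC2 (0.05, edgeR adjusted p = 0.932) were not called. THBD, which encodes thrombomodulin, rose by 3.68 ± 0.16.

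The plasminogen-binding pair ANXA2 and S100A10 was not called (log2 fold changes -0.36 and 0.10, edgeR adjusted p = 0.127 and 0.714). In both genes LV-NC replicate 1 was low, with 15179 ANXA2 counts against 26245 and 22633 in its group mates. Without that library both were called, at -0.58 and -0.17, and the list had 8 higher and 3 lower genes of 14. PLG, the plasminogen gene itself, VTN and CPB2 were not analysed here. The list's median log2 fold change was 0.43, and that of all genes tested was 0.000162.

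Among the other matrix metalloproteinases 12 were tested, 6 rose and 1 fell, with a median log2 fold change of 0.93. The share called was 58.3%, below the 67.6% of all genes. Genes beside MMP1 in the cluster on chromosome 11 were among the risers. MMP13, a collagenase, had 144, 94 and 97 counts in the libraries labelled LV-NC and 1175, 1250 and 1019 in those labelled LV-ATF7 (log2 fold change 3.34 ± 0.18, edgeR adjusted p = 3.64e-06). MMP10, stromelysin-2, went from 96, 106 and 102 counts to 545, 635 and 571 (log2 fold change 2.51 ± 0.12). MMP12, the macrophage elastase, went from 21, 2 and 1 counts to 470, 483 and 375.

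The MMP12 log2 fold change was 5.76 ± 0.59 (SE; edgeR adjusted p = 7.72e-05). LV-NC replicate 1 held 21 of the 24 LV-NC counts, and without it the log2 fold change was larger, at 8.04. These are fitted values against few counts. MMP7, matrilysin, in the same cluster, was not called (log2 fold change 0.35, edgeR adjusted p = 0.638): it had 39, 372 and 385 counts against 347, 346 and 343, so only LV-NC replicate 1 stood apart. All 5 genes lie on the minus strand, and in GRCh38 the lower end of MMP7 is at 102520508, of MMP10 at 102770503, of MMP1 at 102789920, of MMP12 at 102862736 and of MMP13 at 102942995. MMP3 and MMP8 of the same cluster were not analysed here. Outside it, MMP28 (epilysin, a keratinocyte metalloproteinase) rose by 2.50 ± 0.13 and MMP15, a second membrane-type enzyme, had a log2 fold change of -1.39 ± 0.16.

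ADAM and ADAMTS proteases, some of which TIMP3 can inhibit, had 15 tested genes with 9 higher and 3 lower (median log2 fold change 0.53). Here 80% were called, against 67.6% of all genes. ADAMTS1, an aggrecanase, rose from 3.72 to 17.7 CPM (log2 fold change 2.25 ± 0.14) and ADAMTS13, the protease of von Willebrand factor, by 1.49 ± 0.25, while ADAMTS16 had -1.36 ± 0.29. ADAM17, the TNF convertase, showed -0.02 ± 0.09 and was not called. The named genes of the lists had to reach a mean of 50 counts, which left out ADAM12 (1, 2 and 2 counts against 29, 41 and 39) and ADAMTS15 (71, 47 and 46 against 2, 3 and 1), singled out after their values were seen.

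Other regulators of MMP activity had 12 tested genes, 4 higher and 7 lower (median log2 fold change -0.47). Of this list 91.7% were called, against 67.6% of all genes. PCSK6, a proprotein convertase, rose by 2.71 ± 0.14, and LCN2, whose lipocalin binds MMP9, by 2.50 ± 0.33. The other convertase genes of the list, PCSK5 (-1.63 ± 0.15) and FURIN (-0.50 ± 0.08), were lower. SPOCK1, a matrix proteoglycan, had -2.53 ± 0.49, with 53, 176 and 171 counts against 29, 18 and 23. BSG, which encodes the MMP inducer basigin, was lower (-0.99 ± 0.16), CD44, a hyaluronan receptor that docks proteases, was higher (1.13 ± 0.12), and RECK, a membrane inhibitor of MMPs, was not called (-0.44, edgeR adjusted p = 0.204).

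Pericellular serine proteases and their inhibitors had 17 tested genes, 11 higher and 3 lower (median log2 fold change 1.45). Calls made up 82.4% of them, against 67.6% of all genes. PI3, the elastase inhibitor elafin, rose from 12, 39 and 38 counts to 1108, 1142 and 1229 (log2 fold change 5.27 ± 0.33), SPINK5, an inhibitor of kallikreins, by 3.94 ± 0.25, and KLK7, a kallikrein of the shedding stratum corneum, by 3.20 ± 0.31. ST14, the gene of matriptase, had -1.49 ± 0.17. Protease and inhibitor genes were thus both among the risers, but the inhibitor genes of the list split. SLPI rose as well (2.10 ± 0.19), whereas SPINT2 fell (-0.66 ± 0.09) and SPINT1 was not called (0.19, edgeR adjusted p = 0.0882). Of 18 AP-1 and ETS transcription factor genes, whose proteins bind sites known in MMP and PLAU promoters, 7 rose and 7 fell (median log2 fold change 0.058). That is 77.8% called, against 67.6% of all genes. ETV5 fell from 209 to 20.5 CPM, ATF3 from 649 to 156 and FOSL1 from 128 to 33.3, whereas ELF3 rose from 273 to 772. Without LV-NC replicate 1, 8 rose and 8 fell.

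**Figure D5:**
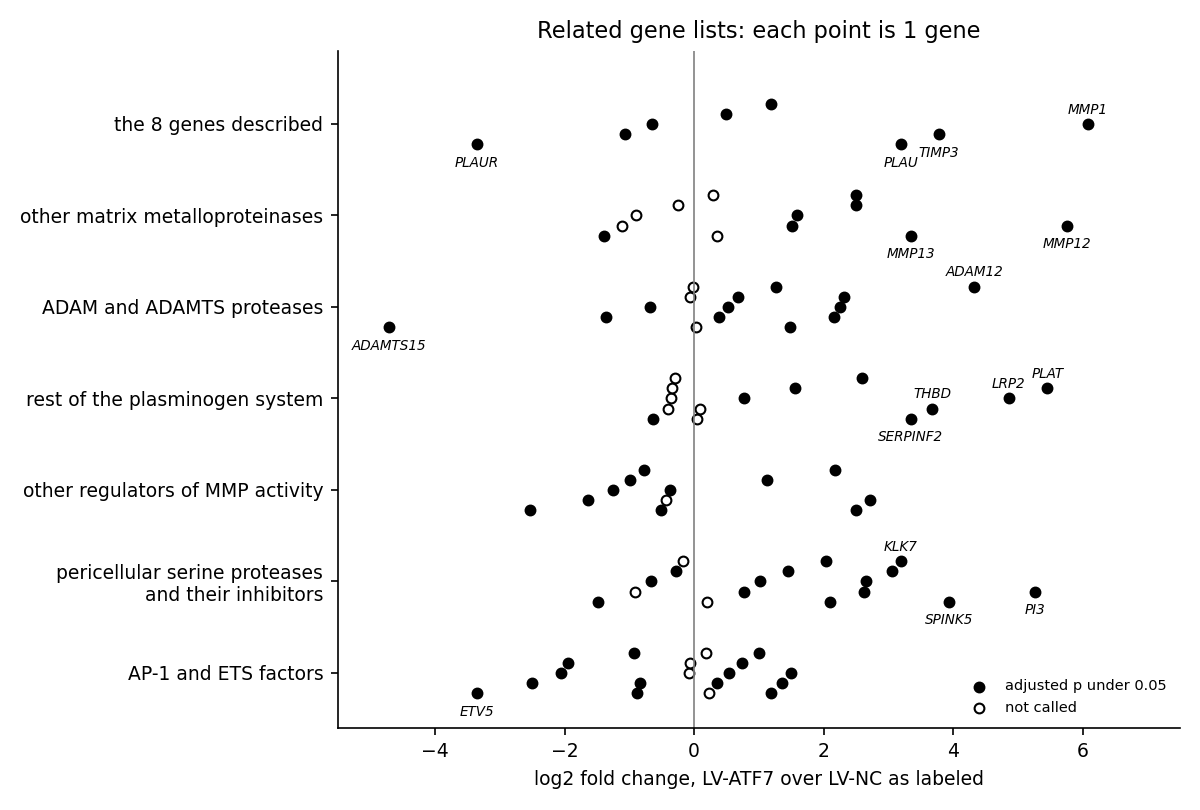
Log2 fold change (libraries labelled LV-ATF7 over LV-NC) of the 8 genes described and of tested genes in 6 related lists, filled where the adjusted p is under 0.05. The vertical offset within a list only separates the points, and genes beyond 3.1 on the scale are named. PLAT, PI3, MMP12 and MMP1 lie farthest to the right.

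For MMP1, the gene of largest change, the closest patterns over the 6 libraries were those of SRPX2, STAT6 and RPL24 (Pearson r of log2 CPM 0.999 each). As 735 genes reached an r over 0.99 and the libraries form 2 clusters, this r describes little beyond the difference between the groups.

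Markers of cell types moved too. All 11 keratinocyte markers had rows, 8 were higher and 2 lower (EPCAM, -0.72 ± 0.11, and KRT14, -2.37 ± 0.91). Their summed level was 2508 to 3392 CPM in the libraries labelled LV-NC and 8557 to 9266 CPM in those labelled LV-ATF7. KRT5 made up a large part of this difference, at 266 and 3354 CPM on average. KRT14, a defining keratin of basal keratinocytes, was low in both groups, at 0.375, 12.5 and 11.3 CPM against 1.45, 1.38 and 1.82. Of fibroblast markers 3 of 9 had a row, summing to 35.1 to 42.7 CPM and 17.4 to 21.8 CPM. COL1A1 fell (36.7 to 16.8 CPM), DCN had 31, 0 and 0 counts against 39, 59 and 51 and was not called, and THY1, with 0, 37 and 20 against 1, 0 and 1, did not pass the filter on low counts. Of macrophage markers 2 of 7 had a row, summing to 3.93 to 4.93 CPM and 7.54 to 10.3 CPM, of which CD14 rose (1.61 to 8.17 CPM) and CSF1R fell (2.79 to 0.611 CPM). Of endothelial markers 2 of 5 had a row, and their sum was 1.12 to 5.50 CPM and 84.6 to 89.9 CPM, most of it CDH5 (3.08 and 84.4 CPM on average); CDH5 and VWF both rose. PECAM1, KDR and TEK were not analysed here. The part of these shifts in the changes of the protease genes was not tested.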

How the data were processed

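Poly(A) RNA of 6 HaCaT libraries was sequenced, and unnormalized counts of reads for each gene were deposited. Per the labels the build was GRCh38; the aligner, counting program, annotation and strand setting are not given in the sources used here. The deposited FPKM values were not used. The table also holds the authors' own comparison as fold change (a ratio), log2 fold change and p-values, none of which were used. Of 12499 gene identifiers, 12485 matched GENCODE release 29, the source of positions and exon lengths.

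Counts were scaled by the trimmed mean of M values, filtered with filterByExpr (12462 genes) and tested with edgeR 4.0.16 (glmQLFit, glmQLFTest) in R 4.3.3, with Benjamini-Hochberg adjustment over all genes. The SE is the log2 fold change over the root of F. Ratios were compared by exact permutation (Python 3.11.15). Alternatives used DESeq2 1.42.0, limma 3.58.1, other scalings and filters, and each library left out. Scripts were tested on simulated data.

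From each related list the 3 largest changes were named among genes called, not overlapping and with a mean of at least 50 counts, and PLAT and SERPINB2 in any case; other genes were named for their known roles after values were seen. The genes and lists were chosen with earlier results of these data known. One gene of the lists, with its ratio, is not reported here.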

Additional observations from a re-analysis of the deposited data

How the results depend on the processing

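The calls and directions of MMP1, MMP14, TIMP1, TIMP2, TIMP3, PLAU and PLAUR held in every alternative run (12 for MMP1, which had no row with at least 10 counts in every library, and 13 for each of the others). MMP2 kept its direction but lost its call with DESeq2 (log2 fold change 0.48, adjusted p = 0.0687) and library size only (0.33). It also lost the call with at least 10 counts in every library (0.48) and with the replicate block (0.49). With each library left out in turn, the call was lost in 4 of 6 fits, and the range over all 6 was 0.34 to 0.60. The cause was not tested. Library size only shifted the median of all genes by -0.16 and the share of calls that were higher from 51.3% to 42.4%. Among the 8 genes, 6 to 8 were called in the other settings and 7 or 8 with a library left out. MMP14 ranged from 0.96 to 1.63 with a library left out. With 5 counts added the MMP1 to TIMP1 difference was 5.61. The TIMP shares by read counts are an alternative chosen after seeing the data. The replicate number did not pair the libraries (correlations of deviations 0.058, -0.021 and 0.065), and the block left 7 of the 8 genes and 8210 of all genes called. Low counts in the libraries labelled LV-NC limit MMP1, MMP12 and other named genes. Examples are LRP2 (17, 13 and 6), SPINK5 (11, 22 and 19) and KLK7 (8, 16 and 6).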
